A study of Mus musculus with 21 samples.

Results

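The genes described here are 38 mouse genes of the interferon response and of class I antigen presentation, taken from a list of symbols and followed across neural stem and progenitor cell libraries. A member was kept when it had at least 1 FPKM (fragments mapped to a transcript, scaled by its length and by the number of fragments mapped in the library) in at least 3 of the 21 libraries, which held for 37 of the 38 members among 24322 symbols in the tables. Nlrc5, an activator of class I genes, was the member not kept, with 1.62 and 1.54 FPKM in VPA running replicates 1 and 3 and less than 1 FPKM in the other libraries. Isg20, Parp14 and Psmb9 lay just inside the rule, with 3 libraries each at or above 1 FPKM.

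Nestin-EGFP mice on the C57BL/6 strain, in which the Nestin promoter drives a green reporter in neural stem and progenitor cells, were used in all 7 groups of 3 libraries, and polyadenylated RNA of GFP-positive sorted cells was sequenced. Pregnant dams received oral methylcellulose (control) or valproic acid (VPA) at 300 mg/kg/day on embryonic days 12, 13 and 14. Embryos gave forebrain cells on embryonic day 15 (E15), and pups of postnatal day 5 (P5) and mice of 12 weeks gave dentate gyrus cells, each age with a control and a VPA group, and a further VPA group at 12 weeks had voluntary exercise. No running group without VPA was among the samples, the labels do not say whether replicates were separate litters, animals or pools, and p-values therefore measure only the spread between these libraries, which may be technical.

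Interferons are secreted proteins that bind receptors on the cell surface and act through JAK kinases and STAT factors. Target genes can carry an interferon-stimulated response element (ISRE), to which IRF9 binds within a complex, or a gamma-activated site (GAS). The targets include sensors of viral RNA, proteins that block virus entry or replication, and the machinery that cuts proteins into peptides, carries the peptides into the endoplasmic reticulum and loads them on class I molecules, which show them to T cells. Neurons and their progenitors are known for low class I levels compared with many other cells of the body.

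The promoters of the members are shown first. RefSeq promoter windows (GRCm38.p6, 250 bases before to 50 after each start) were found for 32 of the 37 kept members. The ISRE core, searched on both strands as GAAA, any 2 bases and GAAA, was present in a window of 15 of these 32 members (46.9%) and in 3.99% of 27025 genes with a window. The GAS core, searched as TTC, any 3 bases and GAA, which reads the same on both strands, was present for 9 of the 32 members (28.1%) and for 9.55% of all genes. Of the members with a window, 7 of the 17 that rose in either age step described below held an ISRE core, as did 8 of the 15 that did not. A match is a description of the letters and not evidence of binding. The following stretches carry an ISRE core within 250 bases before the start, with the matching letters in capitals, printed 5′ to 3′ along the strand of the gene. Those of Gbp7, Gbp3, Ifit3 and Ifit1 hold the core as its reverse complement.
Isg15, chr4:156200863-156200908, minus strand: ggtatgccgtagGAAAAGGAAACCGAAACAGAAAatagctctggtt
Bst2, chr8:71537575-71537614, minus strand: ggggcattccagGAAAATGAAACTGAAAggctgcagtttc
Gbp7, chr3:142530271-142530304, plus strand: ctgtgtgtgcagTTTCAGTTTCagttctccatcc
Gbp3, chr3:142559987-142560026, plus strand: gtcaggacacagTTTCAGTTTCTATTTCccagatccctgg
Ifit3, chr19:34583361-34583428, plus strand: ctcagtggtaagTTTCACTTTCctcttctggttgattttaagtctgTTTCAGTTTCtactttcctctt
Ifit1, chr19:34640773-34640825, plus strand: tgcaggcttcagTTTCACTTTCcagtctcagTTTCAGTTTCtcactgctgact

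B2m and Irf1, on which the results below turn most, differed in their windows. The 250 bases before the B2m start held 1 ISRE core, beginning 139 bases before the start, shown in capitals. Neither Irf1 window held an ISRE core, and the 250 bases before its first start held 1 GAS core, beginning 90 bases before the start, shown in capitals. H2-K1, H2-D1 and Ifit2 also held no exact match to the ISRE core in their windows, and Ifit2 held a GAS core. Near matches were not searched, so these windows are not said to lack a response element.
B2m, chr2:122147437-122147686, plus strand: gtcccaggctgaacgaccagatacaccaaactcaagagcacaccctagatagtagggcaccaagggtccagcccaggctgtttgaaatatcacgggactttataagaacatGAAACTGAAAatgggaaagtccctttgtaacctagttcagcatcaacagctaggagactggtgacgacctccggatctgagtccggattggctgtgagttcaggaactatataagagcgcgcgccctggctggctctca
Irf1, chr11:53769764-53770013, plus strand: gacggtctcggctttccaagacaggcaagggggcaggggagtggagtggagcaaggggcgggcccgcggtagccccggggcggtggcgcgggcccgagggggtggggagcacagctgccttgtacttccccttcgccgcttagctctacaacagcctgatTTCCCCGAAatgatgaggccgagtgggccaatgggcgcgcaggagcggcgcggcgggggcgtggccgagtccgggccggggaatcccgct

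Some values are less certain by their source. Of the 38 members, 19 overlap another annotated gene, among them Psmb9 with Tap1, B2m with Patl2, Irf9 with Rnf31 and Irf1 with Gm17334, and strand use in counting was not given in the sources used here. H2-K1, H2-D1, the Ifit, Ifitm and guanylate-binding genes have close copies between which reads can be split. The sums of FPKM were 465610 to 574594 per library, and read depth was not given. Members varied less among libraries of a group at the early ages (median SD on the log2(FPKM + 1) scale 0.0898 to 0.194) and more at 12 weeks (0.468 to 0.857). The 12-week libraries had 12019 to 15210 genes above 0, against 16116 to 17601 at the earlier ages. VPA running replicate 3 stood apart, with 11 of the 37 members listed at 0 and with 170 of 8355 genes at 0 that had at least 5 FPKM in each of the other 8 libraries at 12 weeks, so a value of 0 there is given only as listed. VPA E15 replicate 3 also stood apart, with a summed level of 8 choroid plexus markers of 11221 FPKM against 13.8 to 157 in the other E15 libraries. Neural stem and radial glia markers such as Nes and Sox2 were present in every library, with summed levels of 481 to 2976 FPKM, and 9 lymphocyte markers summed to at most 0.791 FPKM.

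Members were few at E15 and more numerous at later ages. At least 1 FPKM was reached by 9 to 15 of the 37 kept members in E15 libraries, by 19 to 24 at P5 and by 23 to 35 at 12 weeks. Of the 37, 15 passed the filter only with the help of 12-week libraries and had to be higher there, so counts across ages are given as descriptions and no rise of these 15 from P5 to 12 weeks is read from a test. In the same way, of the 10 members that rose to P5, Tap2, Eif2ak2, Trim25, Irf1 and Gbp7 did not reach the filter within the E15 libraries. The filter favoured a rise from E15 for these genes. Their values and tests for that step are given below as descriptions only.

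**Figure D1:**
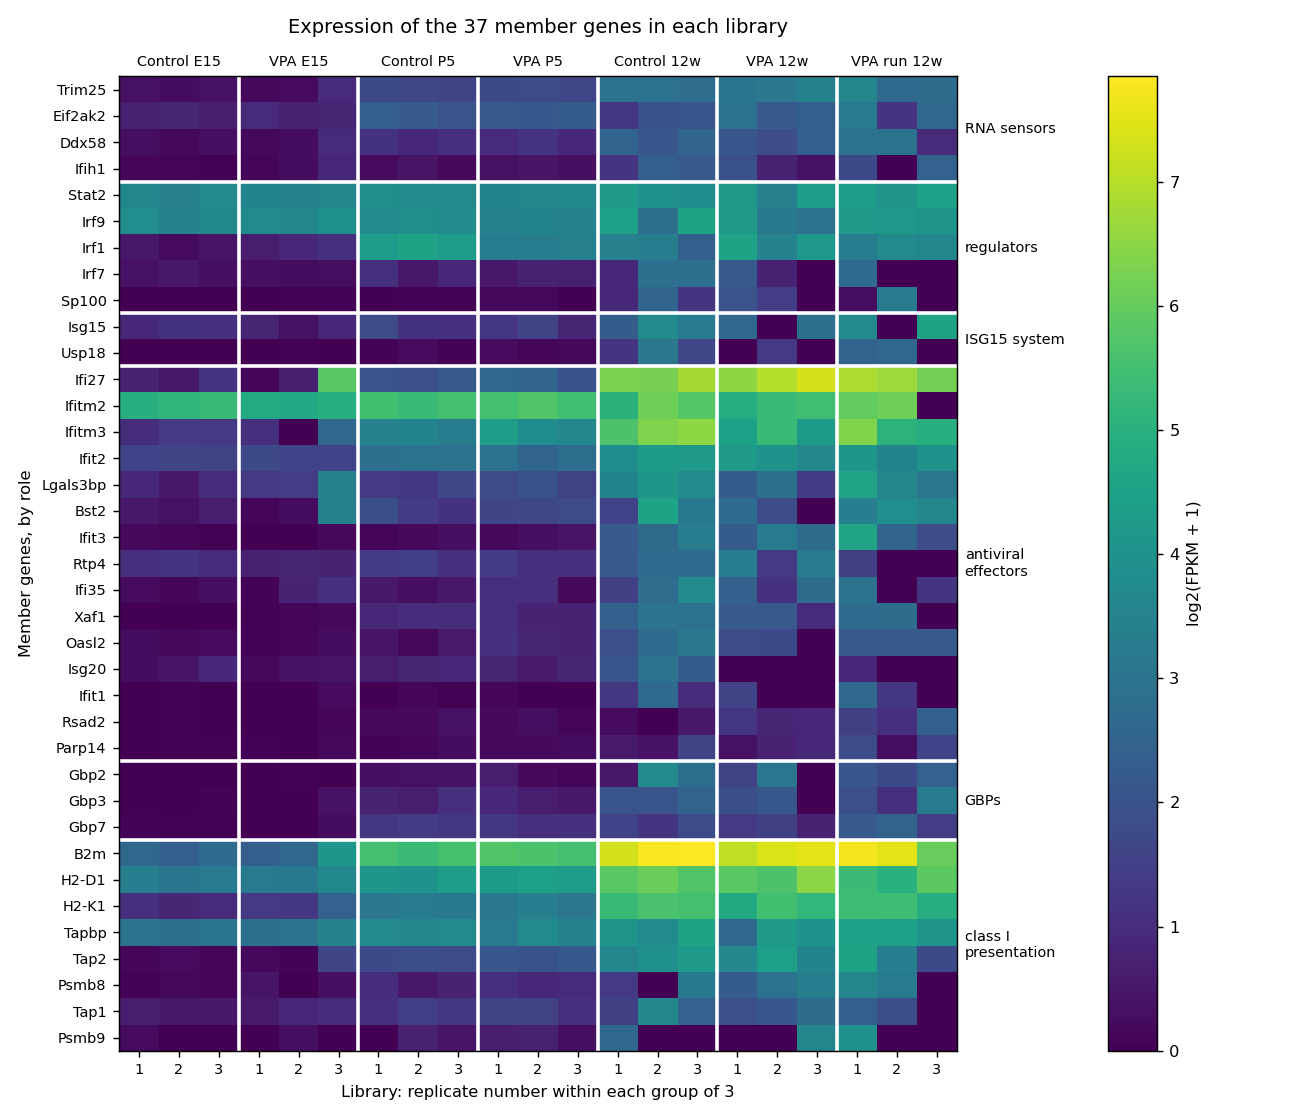
Level of each of the 37 kept members (rows, ordered by role and by mean level) in each of the 21 libraries (columns, replicate numbers within 7 groups), as log2(FPKM + 1) by colour. Several class I genes and antiviral effectors brighten from E15 to P5 and again at 12 weeks, Irf1 is brightest in control at P5, and VPA running replicate 3 has 11 members at 0.

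Of the 8 class I presentation genes kept, 4 rose between E15 and P5 and the same 4 again between P5 and 12 weeks in the control libraries, B2m, H2-K1, H2-D1 and Tap2, against 14.4% and 7.26% of all genes. B2m, the light chain shared by all class I molecules, had 5.20, 4.08 and 5.68 FPKM in control E15 libraries, 45.5, 39.7 and 46.5 at P5 and 157, 215 and 229 at 12 weeks. The 3 ages did not overlap. The rise to P5 was 2.91 ± 0.40 on the log2(FPKM + 1) scale (SE; limma, adjusted p = 2.74e-05) and the further rise to 12 weeks was 2.15 ± 0.40 (limma, adjusted p = 0.00143). H2-K1, a classical class I heavy chain, had 1.13, 0.802 and 0.902 FPKM at E15, 7.68, 8.66 and 8.09 at P5 and 37.9, 47.6 and 45.0 at 12 weeks. Its steps were 2.24 ± 0.27 (limma, adjusted p = 6.49e-06) and 2.28 ± 0.27 (limma, adjusted p = 1.91e-05), and again the ages were separate. H2-D1, the other classical heavy chain among the members, started higher, with 9.30, 7.29 and 8.35 FPKM at E15, and reached 16.5, 15.1 and 19.5 at P5 and 56.0, 67.2 and 51.2 at 12 weeks. Its rises were 0.95 ± 0.22 (limma, adjusted p = 0.00459) and 1.71 ± 0.22 (limma, adjusted p = 5.98e-05). At E15 H2-D1 was above B2m in each control library, and from P5 on B2m was above both heavy chains in each control library, on the FPKM scale.

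Peptide supply followed less evenly. Tap2, a subunit of the peptide transporter, had 0.111, 0.175 and 0.0948 FPKM in control at E15, 2.40, 2.70 and 2.51 at P5 and 10.8, 14.4 and 18.1 at 12 weeks. It rose by 1.65 ± 0.52 to P5 (limma, adjusted p = 0.0293), a call that was lost when any 1 control library of E15 or P5 was left out (adjusted p up to 0.0833), and by 2.10 ± 0.52 to 12 weeks (limma, adjusted p = 0.0114), which was lost with a pseudocount of 0.1 (adjusted p = 0.0639). Tapbp, which bridges the transporter and class I molecules, ranged in control from 6.19 to 7.30 FPKM at E15, 11.5 to 12.5 FPKM at P5 and 12.8 to 22.1 FPKM at 12 weeks, with adjusted p of 0.120 and 0.445 for the steps. Tap1, the partner of Tap2, and the immunoproteasome subunits Psmb8 and Psmb9 passed neither test. Psmb9 was listed at 0 in 6 of the 9 libraries at 12 weeks and at 5.33, 11.2 and 14.2 FPKM in 1 library of each group.

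**Figure D2:**
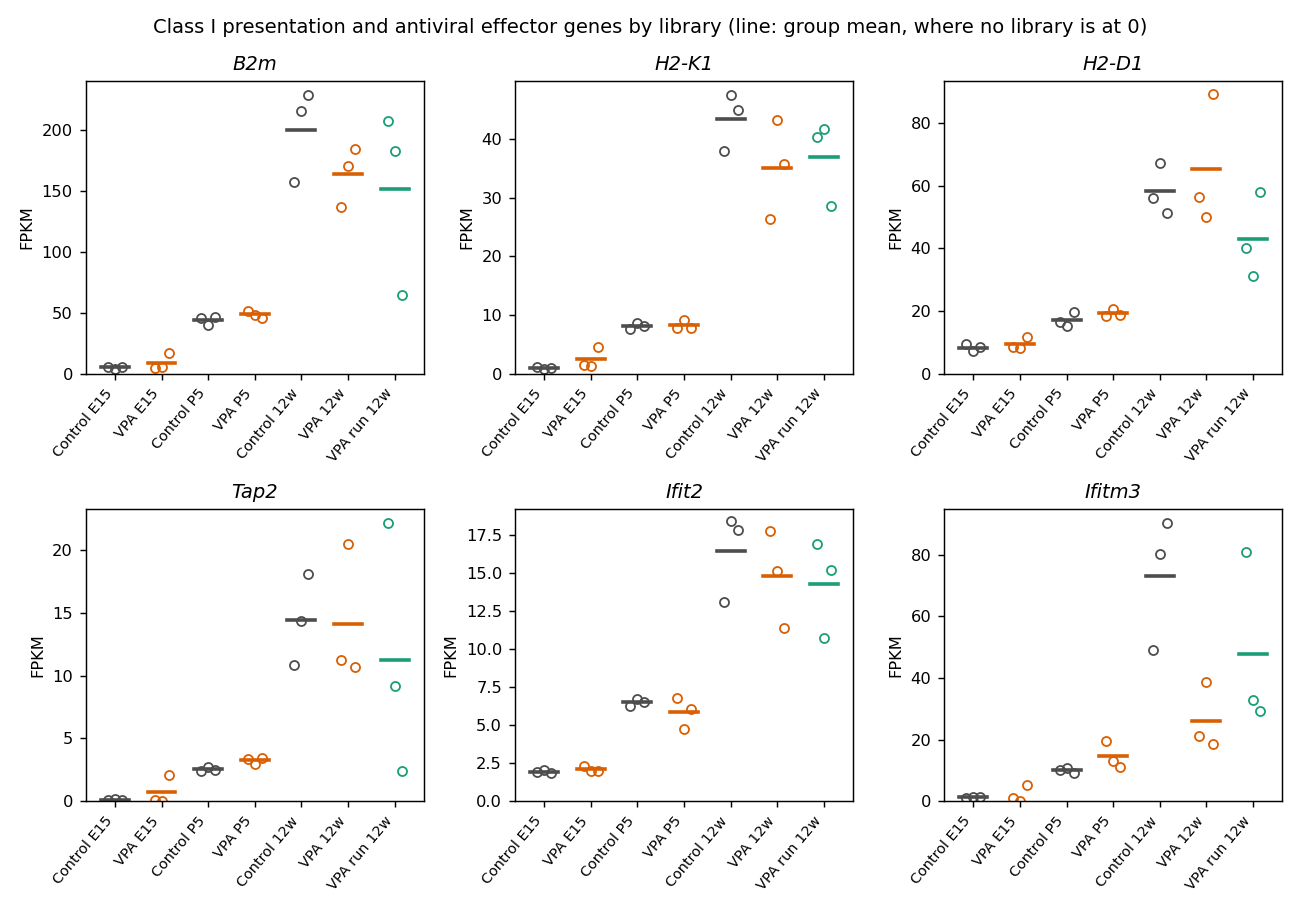
FPKM of B2m, H2-K1, H2-D1, Tap2, Ifit2 and Ifitm3 in each library (circles) of the 7 groups (grey control, orange VPA, green VPA with running), with a line at the group mean where no library is at 0. In control libraries each gene steps up from E15 to P5 and from P5 to 12 weeks, and B2m reaches 157 to 229 FPKM in the 12-week control libraries.

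The VPA libraries took the same order of ages for these genes. B2m had 4.22, 5.23 and 16.9 FPKM in VPA at E15, 51.7, 48.4 and 45.8 in VPA at P5, 137, 170 and 185 at 12 weeks, and 208, 183 and 64.2 with running. The lowest of these running values came from replicate 3, the library with many genes listed at 0. H2-K1 had 1.45, 1.35 and 4.53 FPKM in VPA at E15, 7.78, 9.15 and 7.69 in VPA at P5, 26.4, 43.3 and 35.7 at 12 weeks, and 40.5, 41.8 and 28.5 with running. H2-D1 had 8.32, 8.06 and 11.8 FPKM in VPA at E15, 18.4, 20.5 and 18.8 in VPA at P5, 56.3, 49.9 and 89.3 at 12 weeks, and 39.9, 31.2 and 58.0 with running. For B2m, H2-K1 and H2-D1 the E15, P5 and 12-week libraries did not overlap across all groups of each age, control and VPA.

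Among the antiviral effectors, 2 of 15 rose from E15 to P5 in control libraries, a share close to the 14.4% of all genes. From P5 to 12 weeks, 5 of the 8 effectors that passed the filter without 12-week libraries rose. The share over all genes was 7.26%, but with the filter over all libraries, so the 2 are not directly comparable. Ifit2, which binds viral RNA and slows its translation, had 1.96, 2.03 and 1.86 FPKM at E15, 6.26, 6.72 and 6.55 at P5 and 13.1, 18.4 and 17.8 at 12 weeks. Its steps were 1.35 ± 0.21 (limma, adjusted p = 9.13e-05) and 1.20 ± 0.21 (limma, adjusted p = 0.000755), with narrow groups that did not overlap. Ifitm3, a membrane protein that blocks virus entry, had 1.03, 1.52 and 1.46 FPKM at E15, 10.2, 10.8 and 9.10 at P5 and 49.1, 80.2 and 90.4 at 12 weeks. It rose by 2.24 ± 0.50 (limma, adjusted p = 0.00323) and by 2.71 ± 0.50 (limma, adjusted p = 0.00149), and the second call was lost with a pseudocount of 0.1 (adjusted p = 0.0518). Its neighbour and close copy Ifitm2 was already at 29.2, 34.6 and 38.4 FPKM at E15, had 43.1, 38.7 and 44.1 at P5 and 31.8, 68.8 and 54.0 at 12 weeks, and passed neither test (adjusted p = 0.900 and 0.926). Its fit included the value of 0 listed in VPA running replicate 3, against 28.2 to 69.0 FPKM in the other 12-week libraries.

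Ifi27, a mitochondrial interferon-induced protein, had 3.02, 2.74 and 3.67 FPKM in control at P5 and 75.8, 75.2 and 110 at 12 weeks, a rise of 4.39 ± 0.91 (limma, adjusted p = 0.00352), which was lost with a spread for each group of libraries (adjusted p = 0.112). Ifi27 was at 72.3 FPKM or more in all 9 libraries at 12 weeks. Lgals3bp, a secreted glycoprotein, rose by 2.39 ± 0.50 (limma, adjusted p = 0.00353), from 1.52, 1.36 and 2.24 FPKM to 10.7, 16.7 and 12.5. Ifi35 rose by 2.23 ± 0.63 (limma, adjusted p = 0.0269), a call that was lost with a pseudocount of 0.1 (adjusted p = 0.0747) and on leaving out control 12-week replicate 2 or 3 or any P5 control library. The next 4 effectors passed the filter through 12-week libraries. Ifit3, a partner of Ifit1 and Ifit2, had at most 0.251 FPKM in control at P5 and 3.75, 5.52 and 8.89 at 12 weeks. Oasl2, of the oligoadenylate synthetase family, had at most 0.487 FPKM and then 2.80, 5.69 and 7.89. Xaf1, a partner of an inhibitor of apoptosis, had 0.858, 0.977 and 1.02 FPKM and then 4.27, 6.99 and 6.73. Isg20, an RNA exonuclease, had 0.508, 0.762 and 0.836 FPKM and then 3.31, 6.64 and 3.90, and the 3 control libraries of 12 weeks were the only ones in which it reached 1 FPKM. For these 4 genes the control libraries of P5 lay below those of 12 weeks. Bst2, a tether that holds budding virus at the cell surface, had 1.96, 22.4 and 7.93 FPKM in control at 12 weeks against 1.20 to 2.73 at P5, a spread too wide to pass (limma, adjusted p = 0.225). Rtp4, Ifit1, Rsad2 and Parp14 did not pass either step.

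RNA sensors and their partners were near or below 1 FPKM at E15. Trim25, a ubiquitin ligase that activates the sensor encoded by Ddx58, had 0.285, 0.194 and 0.297 FPKM at E15, 2.40, 2.19 and 2.08 at P5 and 6.63, 6.59 and 6.05 at 12 weeks. It rose by 1.36 ± 0.25 (limma, adjusted p = 0.000658) and 1.20 ± 0.25 (limma, adjusted p = 0.00386). Eif2ak2, the kinase PKR that stops translation on binding double-stranded RNA, rose by 1.48 ± 0.39 to P5 (limma, adjusted p = 0.00945), from 0.630, 0.794 and 0.552 to 4.13, 3.79 and 3.03 FPKM. At 12 weeks it had 1.34, 2.95 and 3.24 FPKM in control, which overlapped P5 (limma, adjusted p = 0.526). Ddx58 (RIG-I), a sensor of viral RNA in the cytoplasm, rose from P5 to 12 weeks by 1.38 ± 0.39 (limma, adjusted p = 0.0275), and the call was lost with a pseudocount of 0.1 (adjusted p = 0.064) and without control 12-week replicate 1 or 3 or any control P5 library. Ifih1 (MDA5), the other such sensor, had 0.169, 0.320 and 0.160 FPKM in control at P5 and 1.26, 4.14 and 3.66 at 12 weeks, and it passed the filter through 12-week libraries.

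The ISG15 system attaches and removes a small ubiquitin-like protein. Isg15 itself had 0.827, 1.23 and 1.17 FPKM in control at E15, 2.55, 1.24 and 1.15 at P5 and 3.95, 12.3 and 8.61 at 12 weeks, and neither step passed (limma, adjusted p = 0.876 and 0.230). It was listed at 0 in VPA 12-week replicate 2 and in VPA running replicate 2, while VPA running replicate 3 had the top value of all 21 libraries, 22.5 FPKM. Usp18, the protease that removes Isg15 and damps receptor signalling, had at most 0.182 FPKM in control at P5 and 1.27, 7.66 and 2.19 at 12 weeks, through which it passed the filter.

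Guanylate-binding proteins, which attack the membranes around intracellular pathogens, were close to 0 at E15. Gbp7 rose by 1.23 ± 0.27 to P5 (limma, adjusted p = 0.00299), from 0.0471, 0.0369 and 0.0267 to 1.36, 1.59 and 1.35 FPKM, and had 1.31 to 2.49 FPKM in control at 12 weeks (limma, adjusted p = 0.632). Gbp3 and Gbp2 had 0.595 to 1.07 and 0.247 to 0.317 FPKM in control at P5, and 3.09 to 4.59 and 0.416 to 12.0 at 12 weeks.

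Regulators split into steady and changing members. Stat2 and Irf9, transcription factors that act downstream of the interferon receptors, were among the most abundant members at E15 and passed no test across age. Stat2 had 11.2, 9.68 and 12.0 FPKM in control at E15, 13.6, 12.6 and 11.9 at P5 and 17.9, 14.3 and 13.2 at 12 weeks. Irf9 had 13.4, 10.3 and 11.6 FPKM, then 12.2, 13.7 and 12.8, then 21.3, 6.15 and 22.2. Irf7, the amplifier of interferon production, stayed at or below 1.07 FPKM through P5 and ranged from 0 to 6.33 at 12 weeks. Sp100, a nuclear body protein, was at or below 0.147 FPKM at E15 and P5 and ranged from 0 to 8.15 at 12 weeks.

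Irf1 took a course of its own. This transcription factor activates class I and immunoproteasome genes and is itself induced by interferon. It had 0.421, 0.169 and 0.325 FPKM in control at E15 and 19.0, 21.8 and 18.6 at P5, a rise of 4.0 ± 0.28 (limma, adjusted p = 7.48e-09), which was the largest log2 step to P5 among the 37 members. In control at 12 weeks it had 9.65, 8.76 and 4.21 FPKM, a fall of 1.35 on the log2 scale (SE 0.28; limma, adjusted p = 0.00322). Irf1 was the only member that fell in either step in that fit. Its control libraries did not overlap between the 3 ages.

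Over all members, 10 of 37 rose and 0 fell from E15 to P5, with a median difference of 0.62. Among all 14662 genes tested 14.4% rose and 6.33% fell, with a median of 0.14. From P5 to 12 weeks 17 of 37 rose and 1 fell, with a median of 1.49, against 7.26% and 5.35% of all genes and a median of -0.04. Of the 22 members that passed the filter without 12-week libraries, 10 rose to P5, and 11 rose and 1 fell to 12 weeks. Of the 10 that passed it within the E15 libraries, 5 rose to P5 and 6 rose to 12 weeks. Shares over all genes under these narrower filters were not computed, so these counts are descriptions and are not set against the shares above. Groups did not overlap, in the higher direction, for 25 of 37 members to P5 and 26 of 37 to 12 weeks, against 44.3% and 18.4% of all genes, and in the lower direction for 0 and 1, against 22.1% and 19.1%. The 26 of 37, the 17 of 37 and the median of 1.49 include the 15 members kept through 12-week libraries. These had to be higher there, so the 3 values are partly set by the filter. The counts of members that rose to P5 are partly set by it as well. Of the 10 members that rose, Tap2, Eif2ak2, Trim25, Irf1 and Gbp7 did not reach it within the E15 libraries, which favoured a rise. With a spread of its own for each group of libraries, a setting chosen after the data were seen, 17 members rose to P5, and with a fit of the E15 and P5 control libraries alone, 16 of 20 tested. The count at 12 weeks was 10 with a pseudocount of 0.1 and 11 of 35 without control 12-week replicate 3. The first step also changes the tissue from forebrain to dentate gyrus, and age and tissue cannot be told apart there.

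Markers of other cell types moved with these steps. Endothelial markers (13) summed to 4.15 to 6.26 FPKM in control at E15, 9.0 to 14.2 FPKM at P5 and 418 to 671 at 12 weeks, and 12 of 13 rose at 12 weeks, with a median of 3.80. All 9 pericyte markers rose at 12 weeks, with sums of 108 to 129 FPKM in control at P5 and 1038 to 2338 at 12 weeks. Microglia markers (12) summed to 0.986 to 2.34 FPKM in control at E15, 23 to 29.9 at P5 and 31.1, 82.9 and 353 at 12 weeks, where 3 of 11 tested rose. The high microglia value was that of control 12-week replicate 1, which had the lowest summed antiviral effectors of its group, 204 against 324 and 342 FPKM, and the lowest summed class I members, 286 against 368 and 378. The same library also had the lowest endothelial (418 against 671 and 527 FPKM), pericyte (1038 against 1893 and 2338) and fibroblast sums (24.2 against 47.6 and 47.9). Its sum of class II presentation genes was the highest, 65.9 against 17.3 and 15.3 FPKM. In bulk samples fewer cells of a type and less RNA per cell cannot be told apart, and the part of endothelial, pericyte or microglial cells in the rise of the members was not tested. From E15 to P5 other lists moved. Of the astrocyte markers 7 of 8 rose, with sums of 30.1 to 33.2 FPKM in control at E15 and 405 to 487 at P5, and 8 of 9 oligodendrocyte lineage markers rose, with sums of 19.8 to 25.3 and 424 to 526. Of the stem and radial glia markers 7 of 10 rose, with sums of 538 to 648 and 2575 to 2976 FPKM. Pericyte markers rose for 6 of 9, from sums of 19.8 to 20.2, erythroid markers for 3 of 4 tested, microglia markers for 2 of 11 and endothelial markers for 0 of 13. The part of this shift in the member values was not tested.

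**Figure D3:**
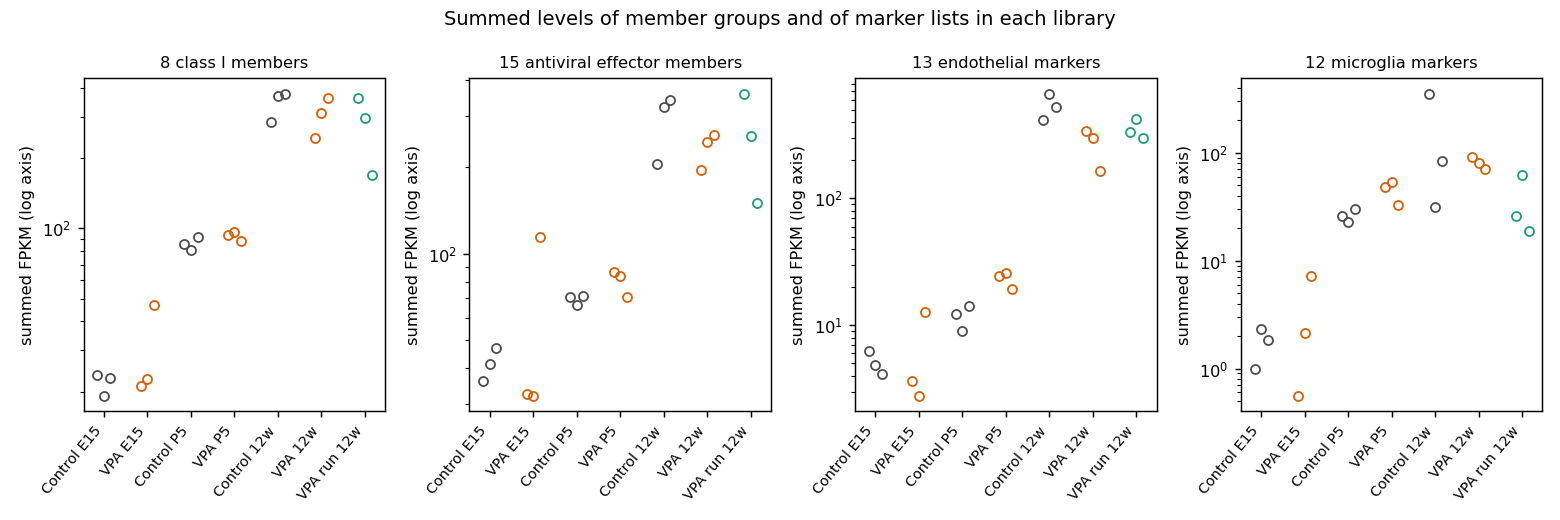
Summed FPKM (log axes) of the 8 class I members, the 15 antiviral effector members, 13 endothelial markers and 12 microglia markers in each library (circles) of the 7 groups. Both member groups and the endothelial markers are highest at 12 weeks, the microglia sum is highest in 1 control library at 12 weeks (353 FPKM), and VPA E15 replicate 3 lies above the other E15 libraries in all 4 panels.

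Other genes of the pathway were taken from lists. None of 12 interferon genes was kept, and their summed level was at most 2.60 FPKM in any library. Of 16 receptor and proximal signalling genes tested, 5 rose and 1 fell to P5, against 14.4% and 6.33% of all genes. Stat3 rose from 7.52 ± 0.66 to 87.3 ± 1.11 FPKM (SD, n = 3; limma, adjusted p = 2.79e-10), Socs3, a feedback inhibitor of JAK kinases, from 6.27 ± 0.34 to 34.8 ± 5.15 (limma, adjusted p = 1.92e-06), and Ifngr2, a chain of the interferon-gamma receptor, fell from 61.6 ± 7.44 to 24.5 ± 2.17 (limma, adjusted p = 0.000159). At 12 weeks 4 of the 16 rose and 2 fell, against 7.26% and 5.35% of all genes. Ifngr1, the other chain of that receptor, rose to 18.9 ± 1.93 FPKM from 7.07 ± 0.73 (limma, adjusted p = 9e-05), and Il10rb, a receptor chain for interferon-lambda, to 11.4 ± 4.91 from 1.53 ± 0.30 (limma, adjusted p = 0.00232). Stat3 and Socs3 fell to 41.2 ± 10.2 (limma, adjusted p = 0.000511) and 12.4 ± 3.51 FPKM (limma, adjusted p = 0.000775).

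Sensing genes outside the member list rose in 3 of 10 cases to P5, against 14.4% of all genes. They were led by Mavs, the adaptor of RIG-I and MDA5 (limma, adjusted p = 0.000231), and Tlr3 (limma, adjusted p = 0.0152). To 12 weeks 1 of 10 rose, Samhd1 (limma, adjusted p = 0.0297), a share near the 7.26% of all genes. Of 32 other interferon-stimulated genes 4 rose to P5, a share below the 14.4% of all genes, led by Parp12 and Irgm1 (limma, adjusted p = 4.14e-06 and 0.000154), and 10 rose to 12 weeks, against 7.26% of all genes, led by Helz2 and Irgm1 (limma, adjusted p = 0.000257 and 0.00114). Their medians were 0.30 and 0.89. Of 17 other class I presentation genes 3 rose in each step, a share near that of all genes in the first and against 7.26% of all genes in the second. Canx and Erap1, a folding chaperone and the peptidase that trims class I peptides, led to P5 (limma, adjusted p = 0.000351 and 0.00446), and the loading-complex proteins Pdia3 and Calr led to 12 weeks (limma, adjusted p = 0.0201 and 0.0255). Of 3 class II presentation genes tested, Ctss, a lysosomal protease also found in microglia, rose at 12 weeks (limma, adjusted p = 0.00116), with 26.3 ± 29.7 FPKM in control (SD, n = 3).

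At E15, the day after the last dose, no member passed the threshold between VPA and control. Of the 10 members tested, 8 were higher and 2 lower in VPA, with a median of 0.12 against -0.01 over 12345 genes, of which 0% rose and 0.0405% fell. An unadjusted p under 0.05 was reached by 1 of the 10 members and by 10.5% of all genes. Ifitm2 had the smallest p, with 26.5, 25.6 and 29.4 FPKM in VPA against 29.2, 34.6 and 38.4 in control (limma, adjusted p = 0.440), and the groups overlapped. Lgals3bp had 1.48, 1.67 and 10.1 FPKM in VPA against 0.829, 0.447 and 1.03 in control, a difference of 1.26 ± 0.55 (limma, adjusted p = 0.490). H2-K1 was 1.45, 1.35 and 4.53 FPKM against 1.13, 0.802 and 0.902 (limma, adjusted p = 0.497). These were the 2 tested members whose groups did not overlap, both higher, against 8.19% of all genes in that direction and 9.32% in the other. Both reached the filter of the E15 fit through the VPA libraries, which favoured this direction. Neither difference is therefore read as a result.

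VPA E15 replicate 3 carried the highest E15 value for 25 of the 37 members (67.6%), against 23.9% of 18453 genes above 0 at E15. Ifi27 was 54.6 FPKM there and at most 1.32 in the other 5 E15 libraries, Bst2 was 9.95 against at most 0.513, and Tap2 was 2.12 against at most 0.175. The summed antiviral effectors were 114 FPKM in that library and 32.0 to 46.9 in the other 5. It was the library with 11221 FPKM of choroid plexus markers, and its sums of endothelial (12.7 FPKM) and microglia markers (7.25 FPKM) were also the highest at E15. The part of these cells in the member values was not tested. Without this library the median difference of the tested members was -0.03, and no member passed.

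At P5 the members as a set lay level between VPA and control, and Irf1 was the exception. Of 21 members tested, 1 fell and 0 rose, with a median of 0.02, while 1.34% of 13328 genes fell and 0.9% rose. These counts over all genes, 178 and 120, ranged from 17 to 295 and from 1 to 273 with 1 library left out, and were 31 and 5 with no filter and 50 and 20 with the replicate block. Irf1 had 19.0, 21.8 and 18.6 FPKM in control and 8.83, 9.11 and 9.62 in VPA. Every VPA library lay below every control library, and the difference was -1.03 ± 0.08 on the log2(FPKM + 1) scale (limma, adjusted p = 0.00433). It passed under every alternative setting and without any 1 library, with adjusted p up to 0.0273. Irf9 (10.2, 10.5 and 10.2 FPKM in VPA against 12.2, 13.7 and 12.8) and Stat2 (10.6, 10.8 and 11.7 against 13.6, 12.6 and 11.9) were also lower in every VPA library without passing (limma, adjusted p = 0.0642 and 0.174). These 3 regulators were the members, of 21 tested, whose VPA libraries all lay below control. That share is close to the 15.6% of all genes that did not overlap in this direction.

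No class I member passed the threshold at P5. B2m was 51.7, 48.4 and 45.8 FPKM in VPA against 45.5, 39.7 and 46.5 in control, and the 6 class I members tested had differences from -0.20 to 0.27. Tap2 was higher in every VPA library, with 3.32, 2.96 and 3.47 FPKM against 2.40, 2.70 and 2.51 (limma, adjusted p = 0.149). Ifitm3 was 19.5, 13.0 and 11.3 FPKM against 10.2, 10.8 and 9.10 (limma, adjusted p = 0.175), also without overlap, in a direction in which 13.8% of all genes did not overlap. Of the pathway lists, Socs3 fell from 34.8 ± 5.15 to 17.6 ± 2.68 FPKM (SD, n = 3; limma, adjusted p = 0.0282), Calr from 265 ± 5.92 to 194 ± 4.70 (limma, adjusted p = 0.0137) and Pdia3 from 123 ± 4.01 to 103 ± 1.77 (limma, adjusted p = 0.0418), and no gene of these lists rose.

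Marker lists differed at P5 as well. All 10 neural stem and radial glia markers were lower in VPA, with a median of -0.33 and 2 past the threshold, and their summed levels were 2491 to 2571 FPKM against 2575 to 2976. All tested microglia (8), endothelial (4), pericyte (9) and fibroblast (6) markers were higher in VPA, with medians of 0.60, 0.75, 1.0 and 0.75, while all 4 tested erythroid markers were lower, with a median of -1.99. Of these, the pericyte markers Pdgfrb and Vtn and the fibroblast markers Col1a2, Col3a1 and Foxc1 rose past the threshold. The erythroid markers Hba-a1 and Alas2 fell past it, and no microglia or endothelial marker passed. Emcn (endothelial), Lum and Foxc1 (fibroblast) had control means of 0.812, 0.422 and 0.631 FPKM and reached the filter through the VPA libraries. Alas2, with a VPA mean of 0.792 FPKM, reached it through the control libraries. The shared directions are thus partly set by the filter, and the calls of Foxc1 and Alas2 are not read as results. The part of the marker shifts in the Irf1 difference was not tested.

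**Figure D4:**
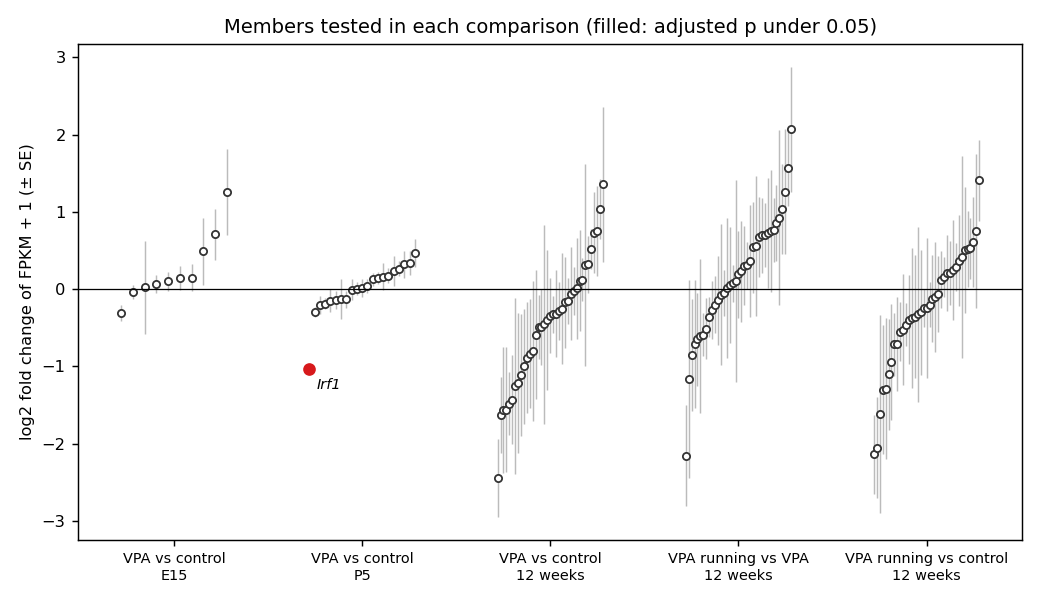
Difference in log2(FPKM + 1) with its SE for each member tested (points, ordered by size) in the 5 comparisons of VPA, running and control. Irf1 at P5 is the filled point past the threshold (-1.03), and the 12-week comparisons have wider errors with 37 members tested in each.

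At 12 weeks no member passed between VPA and control. Of 37 members, 27 were lower in VPA, with a median of -0.34 against -0.01 over 13847 genes, of which 0% rose and 0% fell and 6.39% had an unadjusted p under 0.05, as did 5 members. Isg20, kept through the control libraries alone, was listed at 0 in all 3 VPA libraries and had 3.31, 6.64 and 3.90 FPKM in control. Ifitm3 had 21.1, 38.8 and 18.5 FPKM in VPA against 49.1, 80.2 and 90.4, a difference of -1.48 ± 0.41 (limma, adjusted p = 0.557). Lgals3bp had 3.83, 6.50 and 1.61 against 10.7, 16.7 and 12.5, a difference of -1.63 ± 0.49 (limma, adjusted p = 0.567). Oasl2 and Xaf1 were lower in every VPA library as well, so 5 of 37 members did not overlap in this direction, against 7.63% of all genes. In the other direction 4 members did not overlap, Irf1, Eif2ak2, Trim25 and Rsad2, against 7.83% of all genes. Rsad2 reached 1 FPKM only in VPA 12-week replicate 1 and in the VPA running libraries, through which it was kept. The filter thus favoured the place of Rsad2 in this count and that of Isg20 in the other, and neither is read as a result. Irf1 had 21.7, 10.3 and 17.2 FPKM in VPA and 9.65, 8.76 and 4.21 in control (limma, difference 1.04 ± 0.39, adjusted p = 0.694).

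No class I gene passed between the 12-week groups, and the groups of all 8 overlapped. B2m was 137, 170 and 185 FPKM in VPA against 157, 215 and 229 in control. Psmb8 had the widest difference, 1.35 ± 1.0 (limma, adjusted p = 0.872), with 3.88, 6.72 and 9.12 FPKM in VPA against 1.53, a listed 0 and 8.0. Endothelial markers were lower in VPA at this age for 12 of 13, with a median of -1.11, sums of 166 to 339 FPKM against 418 to 671 and none past the threshold. All 9 pericyte markers were lower too, with a median of -0.68. Their part in the lower member values was not tested.

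The effect of VPA on Irf1 was of opposite sign at P5 and 12 weeks, and this difference between the effects was 2.06 ± 0.39 (limma interaction, adjusted p = 0.0283). At E15 Irf1 had 0.512, 0.867 and 1.14 FPKM in VPA against 0.421, 0.169 and 0.325, all higher but around 1 FPKM or less. The change in its VPA effect from E15 to P5 was -1.51 (limma interaction, adjusted p = 0.559), and it passed with a spread for each group of libraries (adjusted p = 6.03e-05), the setting chosen after the data were seen. In the fit with 1 spread for all libraries no member passed for that change, where 0.0136% of all genes had a higher and 0.0818% a lower effect at P5, and 1 member and 1.93% of all genes had an unadjusted p under 0.05. The call for P5 against 12 weeks was lost with a pseudocount of 0.1 (adjusted p = 0.0883), with the replicate block (0.0543), with a spread for each group of libraries (0.0787), and without any 1 of the 6 P5 libraries, control 12-week replicate 3 or VPA 12-week replicate 3 (adjusted p up to 0.121). Socs3 showed the same order. It had 34.8 ± 5.15 FPKM in control and 17.6 ± 2.68 in VPA at P5, then 12.4 ± 3.51 and 31.8 ± 11.6 at 12 weeks (SD, n = 3), and its effects differed by 2.21 ± 0.35 (limma interaction, adjusted p = 0.00907).

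Isg20 was at 0.769, 0.472 and 0.744 FPKM in VPA and 0.508, 0.762 and 0.836 in control at P5, so its groups overlapped there, while at 12 weeks it was listed at 0 in VPA. The VPA effects at the 2 ages differed by -2.41 on the log2(FPKM + 1) scale. Because Isg20 passed the filter only through the control 12-week libraries, a lower effect at 12 weeks was set by the choice, and no test is read from it. Apart from Irf1 and Isg20 no member passed for this difference in the fit of all libraries, where 0.252% of all genes had a higher and 0.136% a lower effect at 12 weeks.

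**Figure D5:**
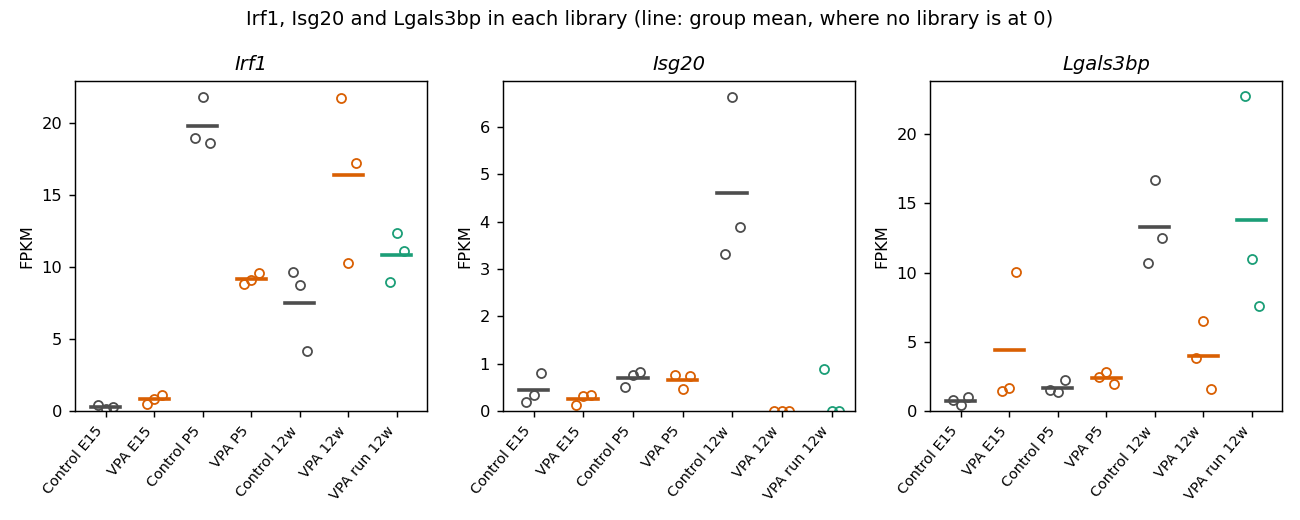
FPKM of Irf1, Isg20 and Lgals3bp in each library (circles) of the 7 groups (grey control, orange VPA, green VPA with running), with a line at the group mean where no library is at 0. Irf1 is lower in VPA than in control at P5 and higher at 12 weeks, Isg20 is listed at 0 in all 3 VPA libraries at 12 weeks, and Lgals3bp is lower in VPA at 12 weeks than in control or VPA with running.

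Running was compared with no running only among VPA mice, and no member passed. Of 37 members, 23 were higher with running, with a median of 0.19 against -0.05 over all genes, of which 0% rose and 0% fell and 11.3% had an unadjusted p under 0.05, as did 3 members. The median was -0.05 with a filter of 5 FPKM, which kept 25 members, and ranged from 0 without VPA running replicate 1 to 0.45 without VPA running replicate 2. Lgals3bp had 22.7, 11 and 7.63 FPKM with running against 3.83, 6.50 and 1.61 without (limma, difference 1.57 ± 0.49, adjusted p = 0.290). Bst2 had 9.30, 13.2 and 11.1 FPKM with running and 5.72, 2.57 and a listed 0 without (limma, adjusted p = 0.380). Oasl2 had 3.53, 3.72 and 3.66 against 2.45, 2.36 and a listed 0 (limma, adjusted p = 0.534). These 3 members did not overlap in the higher direction, against 6.98% of all genes, and none did in the lower direction, against 8.48%. Rtp4, a chaperone of receptors, had the smallest p, with 1.80 FPKM and 2 libraries listed at 0 with running against 9.22, 1.53 and 8.57 without (limma, adjusted p = 0.270). Irf1 had 8.96, 12.4 and 11.1 FPKM with running, overlapping both control and VPA without running. Marker sums were apart between these groups: 1314 to 1818 FPKM with running against 873 to 1065 without for stem and radial glia markers, 626 to 816 against 400 to 536 for astrocyte markers, and 984 to 1073 against 1532 to 2587 for oligodendrocyte lineage markers, with no single marker past the threshold. Microglia marker sums were apart too, with 25.9, 61.5 and 19.0 FPKM with running against 91.7, 81.1 and 69.9 without. The part of these marker shifts in the member values was not tested. Of the pathway lists, the other class I presentation genes had lower sums with running, 728, 682 and 713 FPKM against 977, 942 and 859.

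Against control, which shares its VPA running libraries with the comparison above, no member passed either. Of 37 members, 23 were lower in running VPA mice, with a median of -0.24 against -0.07 over all genes, of which 0% rose and 0% fell and 7.76% had an unadjusted p under 0.05, as did 3 members. Without VPA running replicate 3 the median was 0.19. Isg20 was 0.890 FPKM in 1 running library and listed at 0 in the other 2, against 3.31 to 6.64 in control. Isg20 and Rtp4 did not overlap in the lower direction, against 7.24% of all genes. Rsad2, a radical enzyme that blocks virus replication, did not overlap in the higher direction, against 5.83%. Isg20 was kept through the control libraries alone, and Rsad2 through VPA 12-week replicate 1 and the VPA running libraries. Neither difference is therefore read as a result. Rsad2 had 1.78, 1.12 and 4.39 FPKM with running and 0.168, 0 and 0.454 in control (limma, adjusted p = 0.615).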

How the data were processed

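The deposited tables hold 1 FPKM value per gene symbol and library, made by the authors with TopHat, Bowtie2, Cufflinks and Cuffdiff on mm10, per the submitters' processing notes, without versions, strand use or annotation. Per the file headers the 12-week tables are FPKM; E15 and P5 headers name only the sample, and the unit was inferred from the values, so tables may have been normalised separately. Read depth is unknown, and no interval that needs it is given.

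Members, role groups and lists were chosen with earlier results of these data known. Values were analysed as log2(FPKM + 1), which understates changes of low genes, for genes that reached 1 FPKM in 3 or more libraries of the fit. Linear models were fitted with limma 3.58.1 (lmFit, eBayes with trend) in R 4.3.3 over all genes, with Benjamini-Hochberg adjustment and a threshold of 0.05. E15 (6 libraries), P5 (6) and 12 weeks (9) had a fit each, and comparisons of ages and of VPA effects used all 21. The procedure was tested on simulated data in which each group kept its own spread: it recovered most planted changes with the right sign, but false calls took a larger share than the threshold allows in every comparison except VPA against control at 12 weeks, most of all in the comparisons of 12 weeks with P5. A fit with a spread for each group was added after the data were seen, because the 12-week libraries varied more. No 2 libraries held identical values.

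At E15 libraries of the same number deviated together (correlations 0.126, 0.106 and 0.161 between control and VPA), so the numbers were taken to pair them there. Elsewhere they did not. The SE and p-values printed for E15 are from the fit without this pairing. With the replicate block, which includes it, 0 members rose and 0 fell at E15 as well. Statistics are given for every member past the threshold (beyond 12, the 6 with the smallest p and the 6 largest changes in each direction), values for the 3 members of highest mean in each role group, and up to 2 genes per pathway list and direction. Ifit3, Oasl2, Xaf1, Isg20, Ifih1 and Usp18 passed from P5 to 12 weeks but reached the filter only through 12-week libraries, so their tests are not given. Ifitm3, Lgals3bp, Oasl2, Xaf1, Bst2, Rtp4, Rsad2, Isg20 and Tap2 in comparisons where they did not pass, and the individual values of VPA E15 replicate 3, were chosen after their values were seen. Gene positions and overlaps are from GENCODE vM21. Alternatives were a pseudocount of 0.1, no filter, a filter of 5 FPKM, median-of-ratios scaling, a replicate block, fits of only the groups compared, each library left out and, added after seeing the data, weights per group of libraries.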

Additional observations from a re-analysis of the deposited data

Results flagged for a closer look

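The effect of VPA on Irf1 differed between P5 and 12 weeks by 2.06 on the log2(FPKM + 1) scale, by an interaction test in limma (adjusted p = 0.0283). Irf1 was lower in every VPA library at P5 and higher in every VPA library at 12 weeks. The effect on Isg20 differed between the same ages by -2.41 (limma interaction, adjusted p = 0.0105), with Isg20 listed at 0 in every VPA library at 12 weeks. Isg20 reached 1 FPKM only in the 3 control libraries of 12 weeks and passed the filter through them, so the direction of its difference was set by that choice and the test supports nothing. Both were lost under some of the settings tried, with adjusted p up to 0.121 for Irf1 and 0.0787 for Isg20.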

How the results depend on the processing

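No result changed direction past its threshold under the settings tried. For VPA against control and for running, counts of members past the threshold were the same under all settings and without any 1 library; the median against control of running VPA mice ranged from -0.43 to 0.19 with 1 library left out. The median of running against sedentary VPA, 0.19, was -0.05 with a filter of 5 FPKM and 0 to 0.45 with 1 library left out. From E15 to P5 the members that rose numbered 16 with only the control libraries of both ages and 17 with weights per group, and the median was 0.73 with a filter of 5 FPKM, 1.09 with only those libraries and 1.22 with a pseudocount of 0.1. Leaving out 1 library gave 9 risen members each time and medians of 0.48 to 0.66. From P5 to 12 weeks a pseudocount of 0.1 gave 10 risen members and a median of 2.02, and leaving out 1 library gave 11 to 18 and medians of 1.24 to 1.79. For the VPA effect at P5 minus that at E15, 1 member, Irf1, fell with weights per group, against 0. For the VPA effect at 12 weeks minus that at P5, the 1 member with a higher effect became 0 with a pseudocount of 0.1, with the replicate block and with weights per group, and the 1 with a lower effect became 0 with a filter of 5 FPKM, which left Isg20 out, and with weights per group. Leaving out 1 library gave 0 to 1 in each direction. The cause of these changes was not tested. With the replicate block, no call changed at E15, where the numbers pair the libraries. Elsewhere the samples share only a number, and the block changed 16 for 17 risen members from P5 to 12 weeks and 0 for 1 in the difference of VPA effects. Read depth is unknown, and the wide spread at 12 weeks limits what those comparisons can show.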
